A study of Mus musculus with 12 samples.

Results

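Rab proteins are small GTPases that mark the membranes of a cell and direct the vesicles moving between them. Their genes were read here in dendritic cells (DCs) of the mouse spleen. A gene was taken as a member when its symbol was Rab followed directly by a number and an optional letter. Rab7b was left out. The rule used the symbol only and no measured value, and it gave 58 members of the 18193 genes with a probe set of their own on the array. Each gene was read through its probe set with the highest mean over the 12 arrays, and the members held 129 probe sets in all. A filter on low values passed 55 members. The other 3, Rab3c, Rab40b and Rab44, are given by their levels only.

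The DCs came from alymphoplasia (aly) mice, which carry a mutated Map3k14 gene, the gene of the kinase NIK, and from their heterozygous littermates. The littermates are called WT here as in the labels, so the control mice also carry 1 mutated allele. Mice of each genotype were left untreated or were injected into the peritoneum with 25 µg of LPS, a ligand of Toll-like receptor 4, and 100 µg of an antibody that activates CD40, and DCs were taken 6 hours later. Cells were enriched on CD11c beads and sorted, and the 4 groups, treated and untreated DCs of each genotype, had 3 arrays apiece, each of DCs pooled from 3 mice. Neither strain nor age is given in the sources used here. The p-values are thus based on the spread among pools and not among single mice.

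A Rab protein is active when it holds GTP and then binds effectors, among them tethers and motor proteins. Exchange factors load GTP, GTPase-activating proteins end the active state, and escort proteins and prenyl transferases bring the protein to its membrane. In DCs these steps carry engulfed antigen through early and late endosomes, return receptors to the surface, deliver MHC molecules and release cytokines. LPS and CD40 signals are known to reshape this traffic as DCs mature, and NIK acts downstream of CD40 in the non-canonical NF-kB pathway.

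Levels below are deposited intensities on a linear scale, given for replicates 1, 2 and 3 in that order. Changes are differences of log2(intensity + 16) with their standard error, from 1 limma fit of all 12 arrays and 15019 genes, with 3 arrays per group. A gene was called at an adjusted limma p (Benjamini-Hochberg, over all genes of the contrast) under 0.05, and "rose" and "fell" are used of called changes only. Since 16 is added, the changes of genes with low levels are understated. Levels of different genes were not compared, because probe sets differ in how strongly they bind.

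The labelled cell type was checked against pan-DC markers, and 7 of 7 passed the 40th percentile of intensity on every array. So did 11 of 11 red pulp macrophage markers, so this check does not tell DCs from macrophages. The markers of other cells also differed between groups. The summed level of the red pulp macrophage markers (11 of 11 measured) was 2500.4 to 17817.4 on untreated WT arrays and 43365.9 to 71842.6 on untreated aly arrays, and 2493.5 to 15583 against 31423.3 to 60766 on treated arrays. The summed level of the markers of cDC1, the CD8 alpha positive DCs (7 of 8 measured), was 8094.9 to 15092.1 on untreated and 5501 to 7987 on treated WT arrays, and 12102 to 13209 against 5007.7 to 7797.6 in aly. Not all cDC1 markers were lower with treatment: in WT and in aly 5 of the 7 had negative changes and 2, Batf3 and Ly75, positive ones. No marker of either list was at 0. Between untreated genotypes, erythroid markers (5 of 7 measured) summed to 46.1 to 167.5 in WT and 794.9 to 1522.9 in aly, monocyte markers (3 of 4) to 4467.7 to 9311.5 and 11160.9 to 17543.5, and NK cell markers (3 of 4) to 2142.4 to 3146 and 1023.2 to 1319.2. Among treated arrays the erythroid sums were 30.4 to 322.2 and 475.5 to 4245.5, the monocyte sums 563.6 to 4994.3 and 9891.4 to 15021.8, and the NK sums 430 to 2579 and 236.3 to 1558.6, which overlapped. The untreated genotypes were also apart in the low T cell sums (5.4 to 19.6 and 24.2 to 163.8), in those of cDC2, the CD11b positive DCs (1842.8 to 2223.1 and 2848.6 to 4345.1), and in those of the pan-DC markers (43975.5 to 50379.4 and 51736.9 to 55506). The higher cDC2 sums in aly came from Sirpa alone, since the other 4 of the 5 cDC2 markers had negative differences (median of the 5, -0.73). Of the 7 pan-DC markers, 4 had positive and 3 negative differences. Of the 3 NK markers 2 had positive differences between untreated genotypes, and the lower NK sums in aly came from Klrd1 alone. Of the 3 monocyte markers 2 were positive and Ccr2 was negative. The cDC2, pan-DC, NK and monocyte sums thus do not speak for their whole lists. Among treated arrays the genotypes were apart in the T cell sums (11.3 to 16.4 in WT and 20 to 78.8 in aly) and the pan-DC sums (29761.4 to 39235.7 and 40030.5 to 95797.3). Their cDC2 sums overlapped (2684.4 to 3800.6 and 2551.3 to 3639.1). In a bulk sample, fewer cells of a type and less RNA per cell cannot be told apart. RNA quality moved with genotype: the mean log2 3' to 5' ratio of the control genes was 1.37 to 1.83 on WT arrays and 2.17 to 3.11 on aly arrays, apart from replicate 1 of treated aly, at 5.66. That array stood apart from the rest (rank correlation 0.576 to 0.665, against 0.738 to 0.883 among the other arrays), and some of the results that use it are given without it too. The part of these differences in the results below was not tested.

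Promoter windows were printed for 4 of the members called with treatment in WT, to show the sequence upstream of genes that moved in opposite directions. RefSeq windows (build GRCm38.p6) were matched by symbol for 48 of the 58 members, with 60 windows in all, since some genes have several starts. The 250 bases before each start were searched on both strands for the kappaB consensus of NF-kB, the interferon response core (GAAA, any 2 bases, GAAA), the GAS letters TTCNNNGAA of STAT proteins, the AP-1 letters TGANTCA and the E-box CACGTG of TFEB, the lysosomal regulator. Matches of different motifs did not overlap in any of these windows (0 overlaps). In the sequences, which run 5′ to 3′ on the strand of the gene, capitals mark the matches. Rab22a and Rab34 rose in treated WT DCs, and Rab19 and Rab32 fell.
Rab22a (chr2:173659595-173659844, plus strand): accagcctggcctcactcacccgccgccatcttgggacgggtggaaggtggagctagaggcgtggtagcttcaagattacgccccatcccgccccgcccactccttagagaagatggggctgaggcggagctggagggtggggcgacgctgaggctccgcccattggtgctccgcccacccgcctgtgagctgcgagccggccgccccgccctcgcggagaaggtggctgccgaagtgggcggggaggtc
Rab34, outer start (chr11:78188177-78188426, plus strand): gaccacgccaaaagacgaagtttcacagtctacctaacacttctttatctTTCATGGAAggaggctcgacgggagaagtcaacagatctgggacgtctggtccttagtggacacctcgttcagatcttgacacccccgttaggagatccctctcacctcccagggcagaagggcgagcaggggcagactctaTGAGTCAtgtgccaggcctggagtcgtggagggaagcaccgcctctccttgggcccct
Rab34, inner start (chr11:78188498-78188747, plus strand): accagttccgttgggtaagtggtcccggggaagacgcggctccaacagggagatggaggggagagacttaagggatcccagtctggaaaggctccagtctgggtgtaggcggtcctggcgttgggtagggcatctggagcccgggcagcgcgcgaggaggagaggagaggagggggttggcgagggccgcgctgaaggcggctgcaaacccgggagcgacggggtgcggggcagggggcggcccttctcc
Rab19 (chr6:39381103-39381352, plus strand): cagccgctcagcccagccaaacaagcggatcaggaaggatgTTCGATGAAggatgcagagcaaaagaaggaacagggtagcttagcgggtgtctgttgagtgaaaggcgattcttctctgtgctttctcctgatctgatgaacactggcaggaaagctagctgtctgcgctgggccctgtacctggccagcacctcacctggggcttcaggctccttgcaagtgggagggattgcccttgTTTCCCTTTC
Rab32 (chr10:10558208-10558457, minus strand): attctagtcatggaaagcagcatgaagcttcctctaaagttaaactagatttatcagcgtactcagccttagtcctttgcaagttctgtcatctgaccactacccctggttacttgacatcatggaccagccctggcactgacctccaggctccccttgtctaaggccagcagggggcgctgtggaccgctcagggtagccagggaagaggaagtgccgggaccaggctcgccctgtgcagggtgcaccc
Neither the Rab22a nor the Rab32 window held a match. The outer Rab34 window held GAS letters from position -200 and AP-1 letters from position -58, counted from the start, and the Rab19 window held the interferon response core from -10 and GAS letters from -209. The kappaB consensus was in 5% of member windows and 7.25% of all 32851 windows, the interferon core in 1.67% and 2.98%, GAS letters in 8.33% and 7.02%, AP-1 letters in 3.33% and 6.75%, and the E-box in 8.33% and 6.02%. In 48 of the 60 member windows none of the 5 motifs was found. These letters are a description of the windows and not evidence of binding.

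The first comparison asked how LPS with anti-CD40 changed Rab transcripts in WT DCs. The treatment raised 3 members, Rab26, Rab22a and Rab34, and lowered 5, Rab19, Rab32, Rab39, Rab38 and Rab33b, and the 7 apart from Rab26 changed by a factor of 3.23 to 6.1. These were 8 of the 55 members tested (14.5%), against 9.57% of all genes tested, with 4.94% of all genes called higher and 4.63% called lower. Rab26 passed the filter only through the group where it is high, so it had to differ, and without it the count is 7. At an unadjusted p under 0.05 there were 17 members, or 30.9% against 23% of all genes. The arrays of the groups did not overlap for 13 members that were higher and 7 that were lower, together 36.4% of the members against 36.5% of all genes (14.4% higher and 22.1% lower). The median change of the members was -0.03, beside -0.12 over all genes, and its sign turned with median centring (0.165, beside 0.08 over all genes). Without replicate 1 of treated aly, which enters only the estimate of the spread here, 14 members were called (25.5%, 8 higher and 6 lower), against 19% of all genes (7.86% higher and 11.1% lower). Without replicate 3 of untreated WT or replicate 3 of treated WT, 4 members were called, against 4.31% and 3.92% of all genes, and without replicate 1 of untreated or treated WT 5, against 4.65% and 4.23%.

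**Figure D1:**
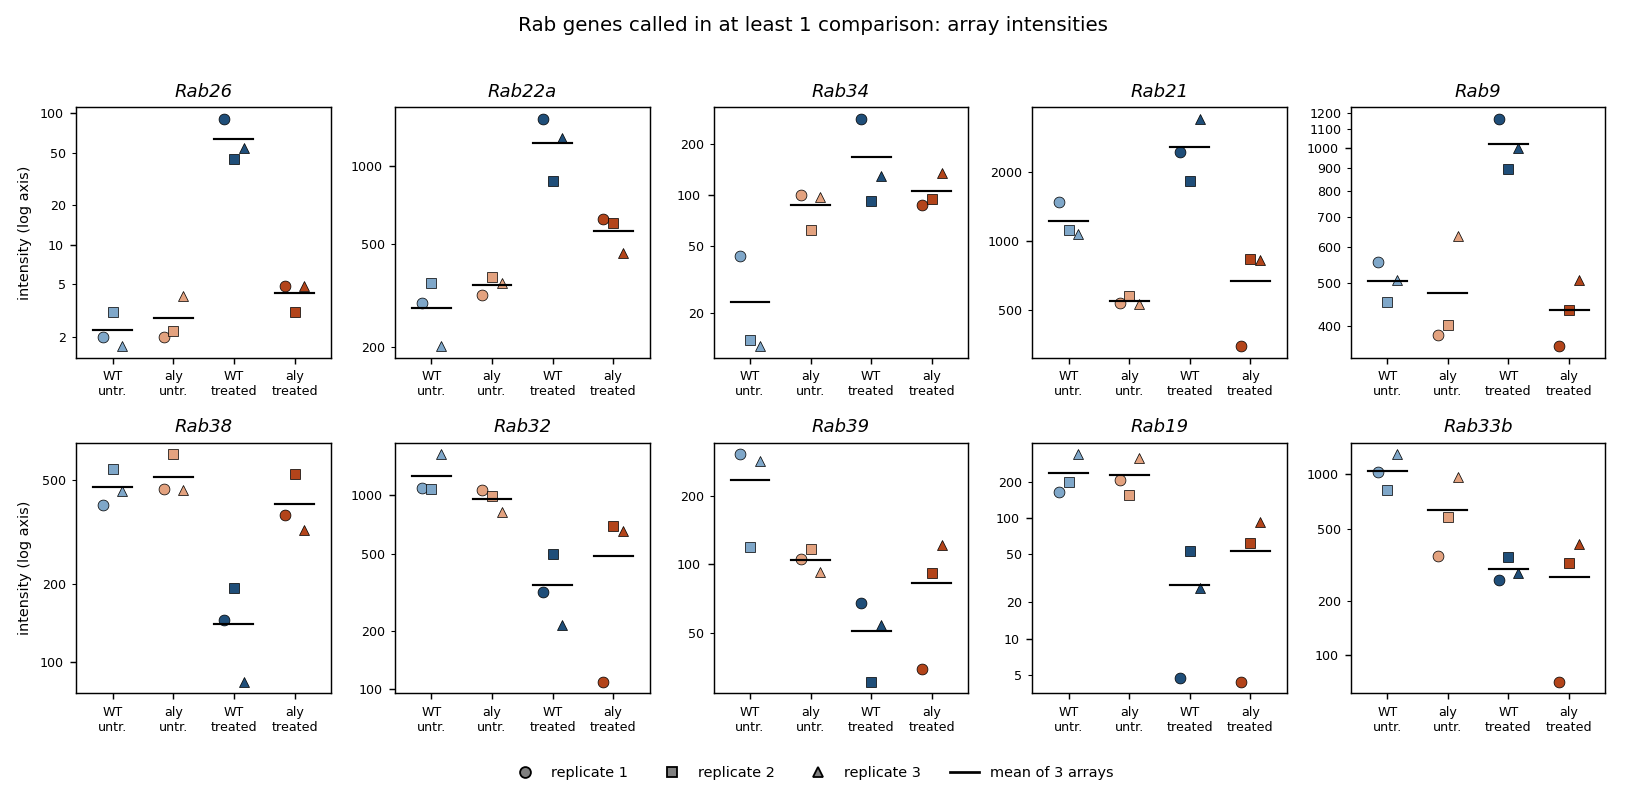
Intensity of each called Rab gene on each array (log axis), with 1 point per array and a line at the mean of 3 arrays. Rab26 stands at 44.7 to 90.2 on treated WT arrays and at 1.7 to 4.9 on the other 9.

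Among the Rabs of early endosomes and phagosomes, 1 of 12 was called (8.33%, against 9.57% of all genes). This was Rab22a, which acts in sorting from early endosomes and in recycling of internalised proteins. It read 297.1, 354.6 and 202 on untreated WT arrays and 1519.1, 871 and 1278.5 on treated WT arrays. All 3 treated arrays lay above all untreated ones, and the mean went from 285 ± 77.1 to 1223 ± 328 (SD, n = 3). The log2 change was 2.04 ± 0.35 (4.12-fold, 95% interval 1.29 to 2.79, adjusted p = 0.00165). In aly it read 318.5, 373 and 355.5 untreated and 622.4, 601.7 and 460 treated, again without overlap, but the change of 0.65 ± 0.35 was not called (adjusted p = 0.428). The other 3 Rab22a probe sets gave 1.05, 0.92 and 1.32 in WT, so all of them were higher but by less.

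The remaining early endosomal members had positive changes in 8 cases and negative ones in 3. Rab21, which is known for integrin traffic, read 1484.8, 1114.2 and 1069.5 on untreated and 2459.8, 1831.9 and 3428.1 on treated WT arrays. These groups did not overlap, yet its change of 1.03 ± 0.40 was not called (adjusted p = 0.119, or 0.0264 without replicate 1 of treated aly). The Rab5 genes, whose proteins drive fusion of early endosomes, differed little: Rab5a was 1623 ± 260 untreated and 1632 ± 302 treated (change 0.00), Rab5b 91.2 ± 33.5 and 134 ± 31.5 (0.52), and Rab5c 196 ± 53.6 and 353 ± 215 (0.68). None of the Rab5 genes was called. Rab14, a Rab of endosomes and the Golgi, was 5322 ± 913 and 4145 ± 535 (-0.35), though 5 of its 7 probe sets had positive changes. Rab4a, of fast recycling, had low levels of 11.1 ± 12.3 and 2.53 ± 0.681 (-0.45). Rab31, a relative of Rab22a, was 702 ± 325 and 307 ± 205 (-1.25 ± 0.48, adjusted p = 0.12), and the arrays overlapped.

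Rab20, a Rab of phagosome maturation, varied most within its group. It read 76.5, 57.3 and 44.8 on untreated and 423, 99.3 and 47.7 on treated WT arrays. In treated WT, replicate 1 alone was far above the untreated arrays, and replicate 3 lay among them. Its change was 0.99 in WT and 0.85 in aly, where it read 142.7, 133.7 and 214.1 untreated and 638.8, 196.4 and 213.4 treated, and neither was called.

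Rabs that return cargo to the cell surface or deliver it there had positive changes in 8 of 9 cases in WT, and the arrays of 6 did not overlap, all of them higher, where 6407 of 15019 genes were positive and 14.4% of all genes lay higher without overlap. None was called in limma (0 of 9, with 5 at an unadjusted p under 0.05, which 23% of all genes had), and their median change was 0.73, beside -0.12 over all genes (0.93 with median centring and 0.63 with quantile normalization, each with 8 of 9 positive). Rab11a, the Rab of the recycling endosome, read 755.9, 1219 and 647.9 untreated and 2023.8, 1628.5 and 1680.5 treated, with every treated array above every untreated one. Its change was 1.06 ± 0.36 (adjusted p = 0.0774), but its other probe set gave -0.72, so the direction depends on the probe set. The related Rab11b read 193.4, 457.8 and 267 untreated and 556.4, 755.8 and 727.6 treated, a change of 1.18 ± 0.40 (adjusted p = 0.076), and its other probe sets gave 0.12 and -0.98. Rab12, of transferrin receptor degradation, read 47.2, 28.6 and 70.8 untreated and 174.6, 121.6 and 110.5 treated, a change of 1.25 ± 0.46 (adjusted p = 0.105). Rab12 was placed in this group, while Rab4a (-0.45) and Rab15 (0.79), also of recycling, were placed with the early endosomes. The 8 of 9 and the group median depend on this placing, which was made with earlier results of these data known. Rab11a, Rab11b and Rab12 were called without replicate 1 of treated aly (adjusted p = 0.0239 for Rab11a, 0.0302 for Rab11b and 0.0142 for Rab12).

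Rab8b, which acts in delivery to the plasma membrane, read 4933.6, 5634.7 and 5550.2 untreated and 9542.2, 7407.1 and 9914.9 treated. The groups did not overlap, and the change was 0.73 (adjusted p = 0.182). Rab10, known to carry Toll-like receptor 4 to the surface of macrophages, went from 2094 ± 338 to 2935 ± 233 (0.49, adjusted p = 0.542), and again no treated array was below an untreated one. Rab35, of endocytic recycling, went from 321 ± 121 to 595 ± 72.5 (0.91, adjusted p = 0.174) without overlap. Rab8a was 1159 ± 58.1 and 1311 ± 221 (0.16), with overlap. In aly 5 of these 9 changes were positive, and in the interaction, which is the response of aly minus that of WT, 8 of 9 were negative. Without replicate 1 of treated aly, 7 of the 9 changes in aly were positive, and 9 of 9 interactions were negative. No interaction of a recycling Rab was called, and the changes in WT and in the interaction share the WT arrays.

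**Figure D2:**
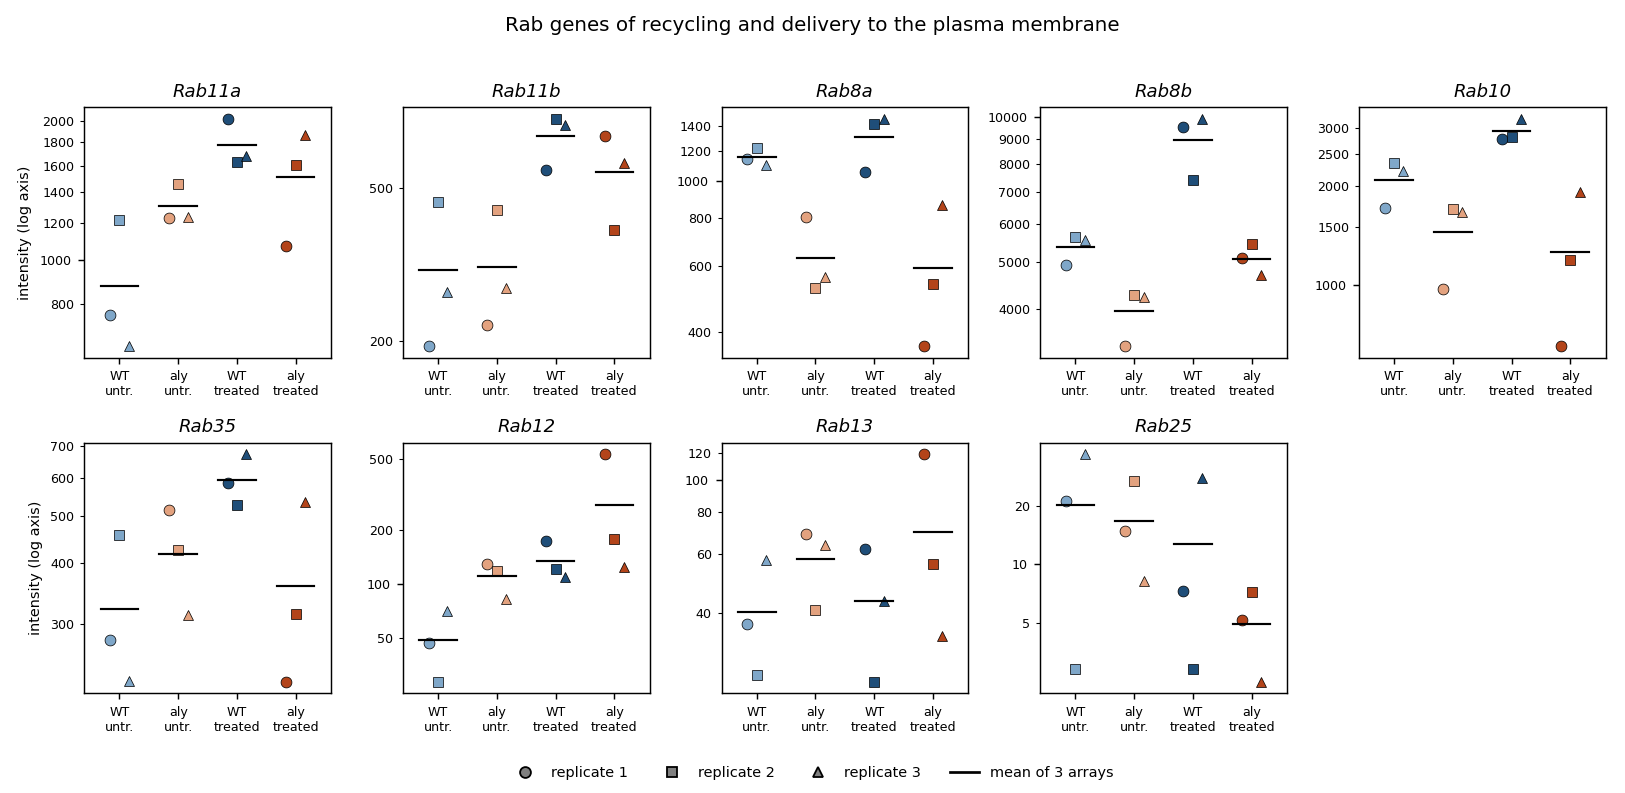
Intensity of the 9 Rab genes of recycling and delivery to the plasma membrane on each array (log axis), with a line at the mean of 3 arrays. Treated WT arrays lie above all untreated WT arrays for Rab11a, Rab11b, Rab8b, Rab10, Rab35 and Rab12.

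Members of late endosomes, lysosomes and related organelles held 4 of the 8 called changes, 1 higher and 3 lower among 12 tested. These were 33.3%, against 9.57% of all genes (4.94% higher and 4.63% lower). The roles were given with earlier results of these data known. Rab34, which is known for the positioning of lysosomes and for phagosome maturation, read 43.4, 13.7 and 12.6 on untreated and 284.3, 92.2 and 129.4 on treated WT arrays. The groups did not overlap, and it rose by 2.18 ± 0.43 (4.54-fold, adjusted p = 0.00447), with 2.41 from its other probe set. In aly it was already at 100.2, 62.2 and 97.6 untreated, above every untreated WT array, and read 86.7, 94.1 and 136.1 treated (0.25 ± 0.43, adjusted p = 0.83).

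Rab32 and Rab38 are close relatives that supply enzymes to melanosomes and other lysosome-related organelles. Rab32 read 1087.5, 1078.2 and 1628.9 on untreated and 318.2, 497 and 215.2 on treated WT arrays, with no overlap. It fell by 1.88 on the log2 scale (SE 0.55, 3.69-fold, adjusted p = 0.0413), and the call was lost on leaving out any of 8 single arrays, with adjusted p up to 0.194. Rab38 read 403.4, 553.2 and 456.1 untreated and 145, 192.1 and 84.2 treated, also without overlap. It fell by 1.69 (SE 0.37, 3.23-fold, adjusted p = 0.00875), its other probe set gave -1.32, and the call was lost only without replicate 3 of treated WT (adjusted p = 0.0668).

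Rab39, a Rab of late endosomes and autophagy, read 304.5, 119.7 and 283.8 untreated and 67.5, 30.5 and 54.3 treated in WT. It fell by 1.86 (SE 0.44, 3.63-fold, adjusted p = 0.015), without overlap, and the call was lost without any of 4 WT arrays (adjusted p up to 0.0825). Rab9, which carries mannose 6-phosphate receptors from late endosomes back to the Golgi, read 557.9, 452.3 and 506.2 untreated and 1161.9, 897.8 and 1000.6 treated. These arrays did not overlap, and the change of 0.99 ± 0.34 was not called (adjusted p = 0.0801, or 0.0296 without replicate 1 of treated aly). Rab7, the main Rab of late endosomes, was 3590 ± 392 untreated and 4902 ± 683 treated, a change of 0.44 that was not called (adjusted p = 0.502), although all treated arrays were higher. Rab24, of autophagy, was lower on every treated WT array (401.4, 943.9 and 560.5 untreated, 245.1, 374.2 and 196.1 treated), with a log2 change of -1.14 ± 0.69 that was not called (adjusted p = 0.364, or 0.0346 without replicate 1 of treated aly).

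In the endoplasmic reticulum and Golgi group 2 of 12 members were called, both lower (16.7%, against 9.57% of all genes, 4.63% lower). Rab19, a little studied Golgi Rab, had the largest change of any member with 16 added (with 1 added, Rab26 was at 4.25 and Rab19 at -3.46): it read 165.6, 198.9 and 336.8 on untreated and 4.7, 52.9 and 26.5 on treated WT arrays. It fell by 2.61 (SE 0.58, 6.1-fold, adjusted p = 0.00938), and the call was lost without replicate 3 of untreated WT or replicate 1 of treated WT (adjusted p up to 0.0621). Rab33b, a Golgi Rab that binds the autophagy protein Atg16l1, read 1031.4, 820.7 and 1284.3 untreated and 260.7, 350.4 and 283.9 treated. It fell by 1.74 (SE 0.52, 3.35-fold, adjusted p = 0.0472), without overlap, and the call was lost on leaving out any of 8 single arrays (adjusted p up to 0.168). Rab1a, which carries cargo from the endoplasmic reticulum to the Golgi, was 3621 ± 906 and 4480 ± 432 (0.33), and Rab43, of the Golgi and, in cDC1, of cross-presentation, was 1121 ± 151 and 1325 ± 242 (0.23). Neither was called. The summed cDC1 markers, of which 5 of 7 had negative changes, were lower on the same treated arrays, with no test of their part.

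Rab26, a Rab of secretory granules, was the called member of the secretion group (1 of 7, against 9.57% of all genes). It read 2, 3.1 and 1.7 on untreated and 90.2, 44.7 and 54.1 on treated WT arrays, and 2 to 4.9 on the 6 aly arrays. Only on the 3 treated WT arrays did it pass the 40th percentile of intensity. It thus entered the test through the group where it is high, and its values are a description. The fitted log2 change was 2.07 ± 0.33 with 16 added and 4.25 with 1 added, so it gives no exact fold. Rab27a, which docks secretory lysosomes and exosomes, was 190 ± 46.4 and 181 ± 56 (-0.08), and the other 5 tested secretion Rabs also had negative changes, none of them called. These directions depend on the scaling: 6 of the 7 changes were negative as deposited and 3 with median centring or quantile normalization.

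Of the members not described singly, 3 could not be tested: Rab3c read 1.8 to 81.1, Rab40b 0.5 to 29.7 and Rab44 1.3 to 32.4 over the 12 arrays. The tested Rabs of cilia and other sites, Rab23, Rab28 and Rab40c, had differences of 0.22, -0.04 and -0.15 in WT, and all 3 were positive with median centring or quantile normalization. The others ranged in WT from -1.07 (Rab37, of mast cell secretion) to 0.79 (Rab15, of endosomal recycling). Scaling matters for the balance of directions: with each array centred on its median, 9 members were called in WT (6 higher and 3 lower, 66.7% higher against 37.5%), because Rab11a, Rab11b and Rab9 were added and Rab32 and Rab33b lost. The balance over all genes moved the same way, with 8.91% called under that centring (6.01% higher and 2.9% lower). With quantile normalization 5 members were called, 3 higher and 2 lower, against 7.98% of all genes (4.97% higher and 3.02% lower).

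**Figure D3:**
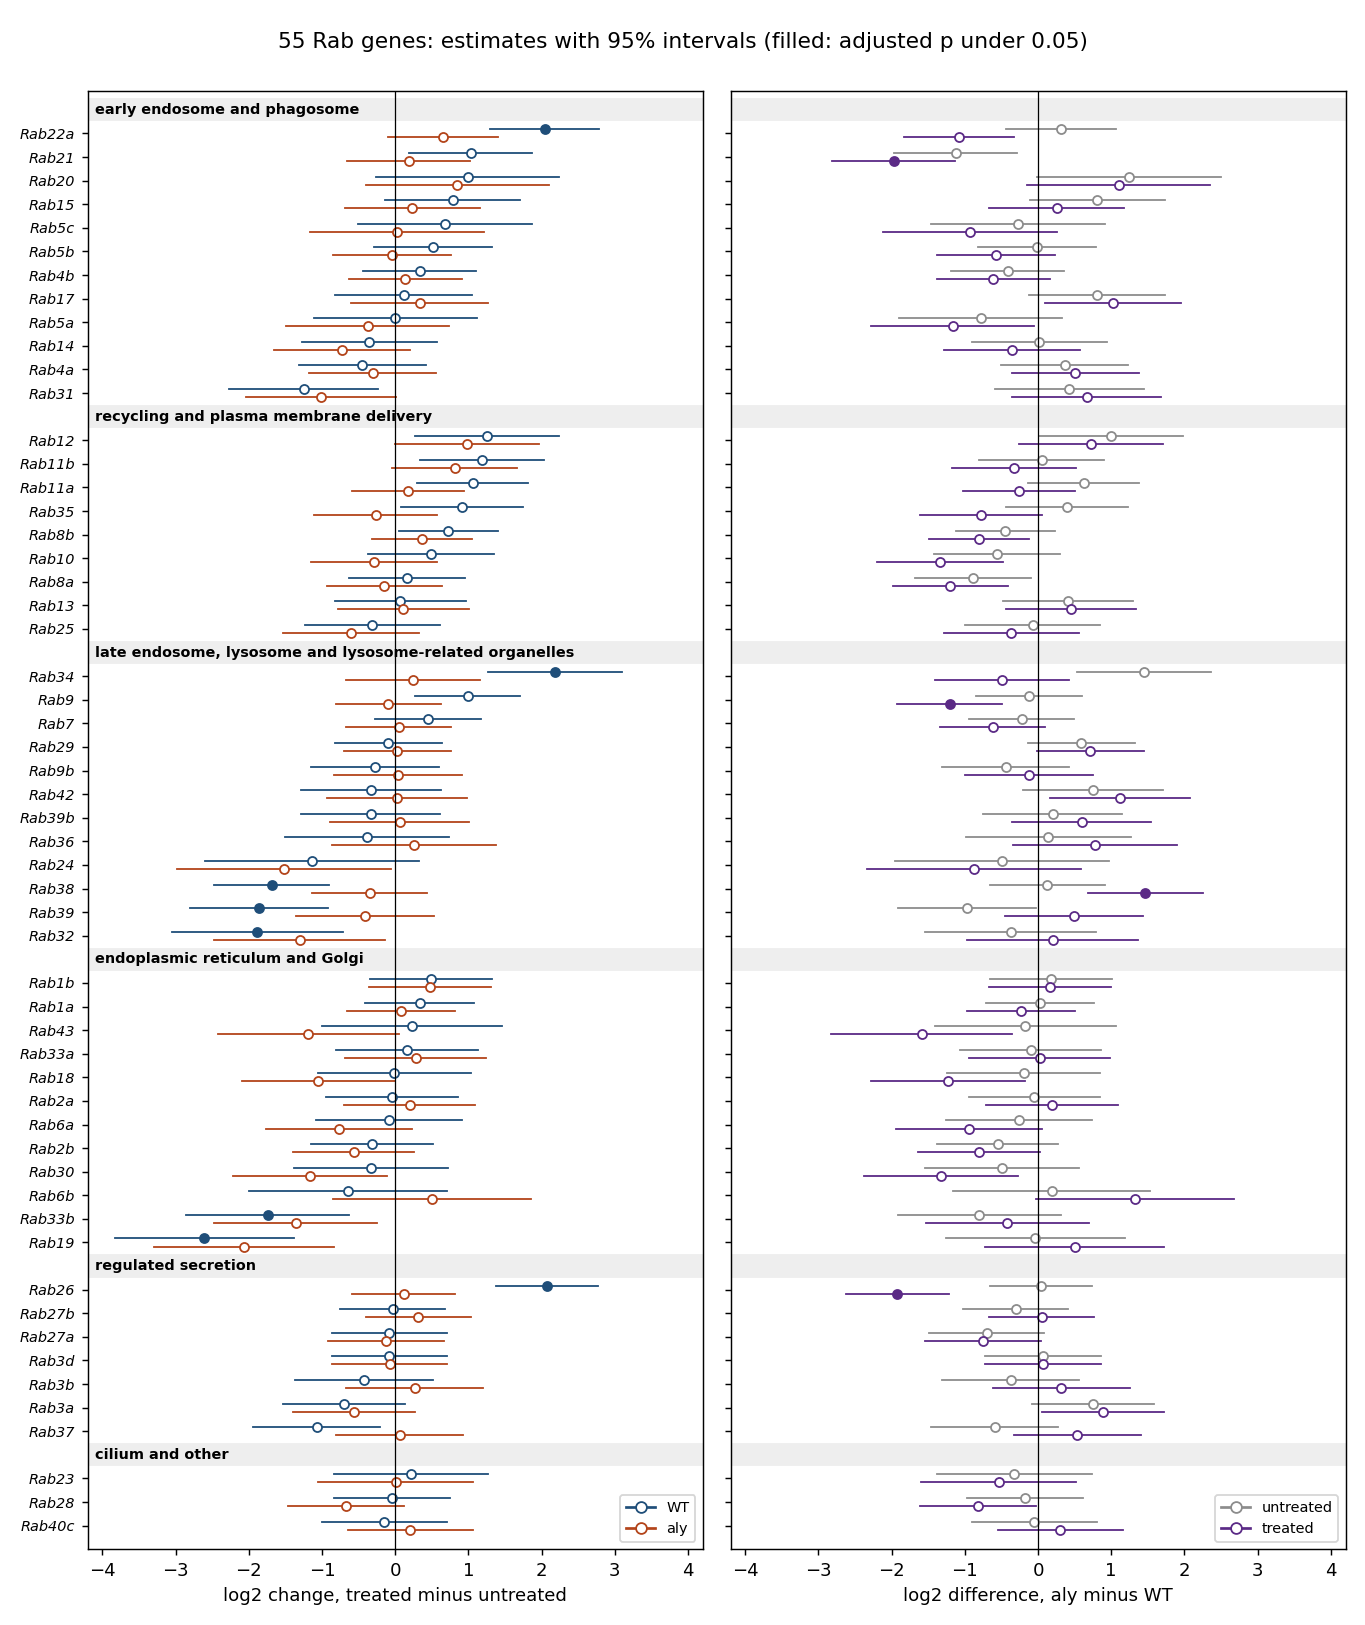
Log2 change of each of the 55 tested Rab genes by role, with treatment in WT and in aly. Filled points are called at an adjusted p under 0.05, which 8 members are in WT and 0 are in aly.

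The same treatment in aly DCs called no Rab member in limma (0 of 55, against 0.486% of all genes, 0.453% higher and 0.0333% lower). At an unadjusted p under 0.05 there were 5 members, or 9.09% against 12.9% of all genes, and without replicate 1 of treated aly there was 1, against 8.02% of all genes. Arrays did not overlap for 2 members that were higher and 5 that were lower, together 12.7% against 14.6% of all genes (6.07% higher and 8.52% lower). The median change was 0.03, beside -0.07 over all genes. The largest negative changes were those of Rab19 and Rab24, and the largest positive ones those of Rab12 and Rab20.

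Rab19 read 207.1, 156.2 and 313.8 on untreated and 4.4, 61.8 and 93 on treated aly arrays. No treated array reached an untreated one, and the change was -2.06 ± 0.58 (adjusted p = 0.175), or -1.34 without replicate 1. Rab24 read 313.2, 486 and 487.5 untreated and 15.5, 328.4 and 306.8 treated, so replicate 1 was far below the other arrays and the groups overlapped. Its change was -1.52, and -0.39 without that array. Rab12 read 130.5, 118.9 and 83 untreated and 531.8, 179.1 and 124.3 treated, where replicate 1 was again the extreme, with a change of 0.98 and 0.40 without it. The Rab20 change of 0.85 became 0.33. All 4 changes thus moved by more than 1.5 times when that array was left out.

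In untreated DCs no member was called between the genotypes (0 of 55 in limma, against 0.519% of all genes, 0.466% higher and 0.0533% lower). Same-numbered arrays of these 2 groups deviated together, and with the replicate number as a block there were again 0 members, against 0.906% of all genes (136 in place of 78). At an unadjusted p under 0.05 there were 5 members, or 9.09% against 10.4% of all genes. Arrays did not overlap for 8 members higher and 11 lower in aly, together 34.5% against 22.8% of all genes (12.9% higher and 9.91% lower). The median difference of the members was -0.05, beside 0.10 over all genes. The largest differences were those of Rab34 (1.45 ± 0.43, adjusted p = 0.18) and Rab20 (1.24, adjusted p = 0.482), both higher in aly, and of Rab21 (-1.12 ± 0.40, adjusted p = 0.286) and Rab39 (-0.97, adjusted p = 0.466), both lower. For each of these 4 genes the arrays of the genotypes did not overlap: Rab21, for example, was 536.4, 572.4 and 530.6 in aly and at least 1069.5 in WT. The marker sums of macrophages, erythroid cells, monocytes, NK cells, T cells, cDC2 and all DCs and the 3' to 5' ratio separated the same arrays, and their part was not tested.

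Among treated DCs, 4 members were called between the genotypes (3 without Rab26): Rab26, Rab21 and Rab9 were lower in aly and Rab38 was higher. These were 7.27% of the 55 tested, against 5.35% of all genes (2.72% higher and 2.64% lower). At an unadjusted p under 0.05 there were 16 members, or 29.1% against 22.9% of all genes. Arrays did not overlap for 6 members higher and 14 lower in aly, together 36.4% against 24.2% of all genes (14.1% higher and 10.1% lower). The median difference was -0.26 for the members and 0.19 over all genes, and without replicate 1 of treated aly the medians were -0.09 and 0.12 and 3 members were called (5.45%, against 7.1% of all genes, 4.09% higher and 3.01% lower). With each array centred on its median they were -0.52 and -0.06, and 6 members were called, all lower in aly, against 1 higher and 3 lower as deposited, where 5.97% of all genes were called (1.38% higher and 4.58% lower). Without replicate 3 of treated WT only Rab26 was called, against 0.533% of all genes. Without replicate 1 of treated WT or replicate 2 of treated aly 2 members were called, against 3.22% and 2.07%, and without replicate 3 of treated aly 8, against 10.4%. The marker sums of macrophages, erythroid cells, monocytes, T cells and all DCs and the 3' to 5' ratio separated the treated genotypes too, and their part was not tested.

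Rab26, which passed the filter only on treated WT arrays, read 4.9, 3.1 and 4.9 on treated aly arrays, near the untreated level, and its fitted difference of -1.92 ± 0.33 gives no exact fold. When only the treated groups were fitted, none of the 4 members was called (0 of 55, against 0.153% of all genes), with adjusted p = 0.081 for Rab26 and 0.111 for Rab21. Rab21 read 346.8, 835.5 and 828.1 on treated aly arrays, below all WT arrays of either kind. It was lower by -1.97 ± 0.40 (3.92-fold, adjusted p = 0.0123), and by -1.56 without replicate 1 of treated aly (adjusted p = 0.0128), while the call was lost without replicate 3 of treated WT (adjusted p = 0.101). Its other probe set gave -0.68.

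Rab38 read 368.9, 526.5 and 322.6 on treated aly arrays, above the 84.2 to 192.1 of treated WT. It was higher by 1.47 ± 0.37 (2.76-fold, adjusted p = 0.031), and the call was lost without replicate 1 or 3 of treated WT or replicate 2 of treated aly (adjusted p up to 0.201). Rab9 read 360.9, 434.9 and 507.7 on treated aly arrays, below the 897.8 to 1161.9 of treated WT. Its difference of -1.21 ± 0.34 (2.31-fold, adjusted p = 0.0497) was called without only 2 of the 12 arrays in turn, and without replicate 1 of treated aly it was -1.08 (adjusted p = 0.0637).

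Rab10, Rab8a and Rab22a had adjusted p under 0.1 and were not called. Rab10 read 653.1, 1197.2 and 1924 on treated aly arrays, against at least 2774.4 in treated WT (-1.34 ± 0.41, adjusted p = 0.066). Rab8a read 367.9, 537 and 868.2, against at least 1056.8 (-1.20 ± 0.37, adjusted p = 0.0707), and Rab22a 622.4, 601.7 and 460, against at least 871 (-1.08 ± 0.35, adjusted p = 0.0852). The genotypes did not overlap for these 3 genes. Other probe sets gave -0.30 and -0.75 for Rab10, -0.05 for Rab8a, and -0.96, 1.07 and -0.95 for Rab22a. Rab6b, of Golgi traffic, had the largest positive difference after Rab38, with 189.2, 150.5 and 87.5 in treated aly and 32.3, 44 and 61.2 in treated WT (1.33, adjusted p = 0.225). Rab43 read 126.3, 439.7 and 1303.1 in treated aly, where replicate 1 was the lowest, and its difference went from -1.59 to -0.77 without that array, while its other probe sets gave 1.38 and 0.21. Rab5a went from -1.16 to -0.35 in the same way.

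Whether the response to treatment itself differed between the genotypes was tested by the interaction, and no member was called (0 of 55 in limma, against 0.153% of all genes). At an unadjusted p under 0.05 there were 6 members, or 10.9% against 7.96% of all genes, and 9 without replicate 1 of treated aly, against 13.9%. The lowest interactions were those of Rab26 (-1.96 ± 0.47, 95% interval -2.95 to -0.97, adjusted p = 0.183) and Rab34 (-1.94 ± 0.61, -3.23 to -0.64, adjusted p = 0.357). The highest were those of Rab39 (1.45 ± 0.63, 0.12 to 2.78, adjusted p = 0.591) and Rab38 (1.34 ± 0.52, 0.23 to 2.45, adjusted p = 0.523). Rab26 entered the test only through treated WT, where it is high, so its values here are a description. Its adjusted p was 0.0502 without replicate 1 of treated aly. A call in WT with none in aly is therefore not shown to be a difference between them for any Rab gene.

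**Figure D4:**
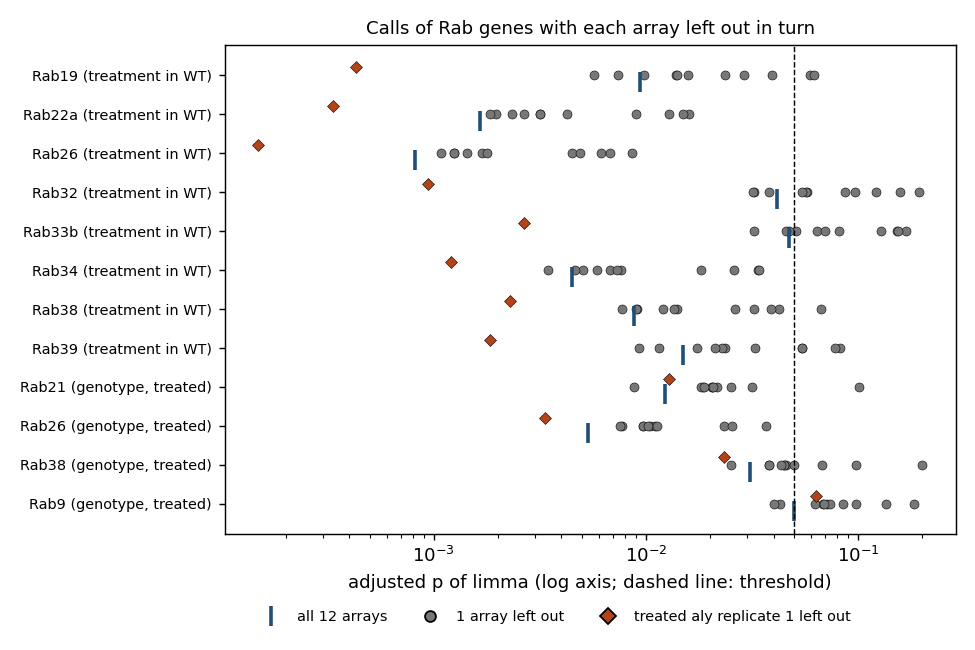
Adjusted p of each called Rab result (log axis) with all 12 arrays (tick) and with each array left out in turn (points). The diamond is the value without replicate 1 of treated aly, and the dashed line is at 0.05. Rab22a and Rab34 kept their calls in all 12 omissions, and no log2 change (not drawn) changed sign. Rab26 also kept its calls, but it passed the filter only through treated WT, where it is high, so it had to differ.

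The proteins that switch Rabs on and off, or that Rabs bind, were read from a list of 134 genes, of which 123 were tested. With treatment in WT, 13 rose and 3 fell, 13% against 9.57% of all genes, and their median change was -0.03. Among exchange factors 4 of 32 were called, among GTPase-activating proteins 4 of 35, among effectors 7 of 49 and among delivery and prenylation proteins 1 of 7.

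The exchange factor subunit Mon1b, which with Ccz1 loads Rab7 in the Rab5 to Rab7 switch, rose by 2.23 ± 0.46 (4.68-fold, adjusted p = 0.00593). Its other probe sets gave 0.83 and -0.17 in WT and 1.82 and -0.03 in aly. Vps39, a subunit of the HOPS tether that Rab7 binds, rose by 1.58 ± 0.40, and Rubcn (Rubicon), another Rab7 partner, by 1.39 ± 0.36. Rilpl2, an effector of Rabs of the Rab8 family, rose by 2.12 ± 0.37 (4.35-fold, adjusted p = 0.00176), and its relative Rilpl1 by 1.32 ± 0.35, though the other 3 Rilpl1 probe sets gave 2.15, -0.23 and -0.32. Rufy3, which links lysosomes to motor proteins, rose by 2.07 ± 0.39 (4.19-fold, adjusted p = 0.00279), with positive changes in all 5 other probe sets.

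The GTPase-activating proteins Tbc1d1 and Tbc1d8 rose by 2.38 ± 0.55 and 1.55 ± 0.37. The other 3 Tbc1d1 probe sets gave 1.78, 1.37 and 0.34 in WT and -0.81, 1.24 and 0.88 in aly. Of the exchange factors, Dennd3 rose by 1.54 ± 0.44 and Dennd2c fell by 1.71 (SE 0.42). The other 2 that fell were Exoc6, an exocyst subunit (-1.17 ± 0.34), and Chml, an escort protein of prenylation (-1.99 ± 0.60). Of the 16 calls, those of Mon1b, Rilpl2 and Rufy3 were kept in all 12 omissions of 1 array. In aly none of the 123 was called (0 in limma, with 15 at an unadjusted p under 0.05, or 12.2% against 12.9% of all genes).

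**Figure D5:**
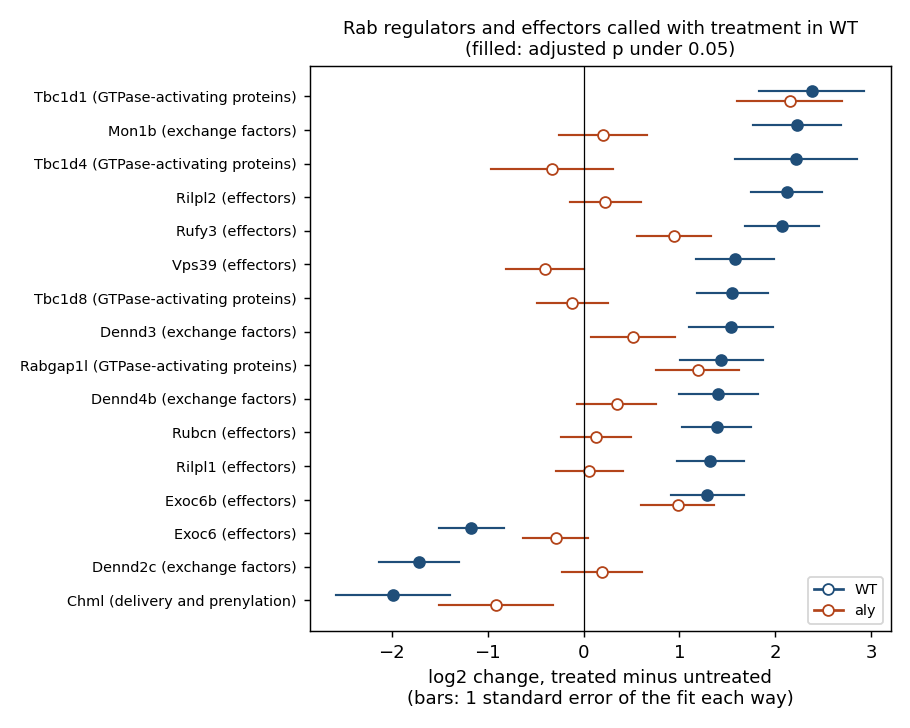
Log2 change (with 1 standard error each way) of the 16 Rab regulators and effectors called with treatment in WT, in WT and in aly, with filled points for calls. Mon1b lies at 2.23 in WT and 0.20 in aly, though another of its probe sets gave 0.83 in WT and 1.82 in aly. Tbc1d1 lies at 2.38 and 2.15, the latter from 1 probe set of 4, of which another gave -0.81 in aly.

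Between the genotypes in untreated DCs none of the 123 was called (0 in limma, with 20 at an unadjusted p under 0.05, or 16.3% against 10.4% of all genes). Among treated DCs 1 was higher in aly, Tbc1d24, and 8 were lower, 7.32% against 5.35% of all genes. Tbc1d4 (AS160), the GTPase-activating protein of Rab8a, Rab10 and Rab14, was lower by -3.16 ± 0.64 (8.96-fold, adjusted p = 0.0123), and had risen in WT by 2.21 ± 0.64. Its other probe set gave 0.05 between the treated genotypes and 0.51 in WT, and without replicate 1 of treated aly the difference was -2.19 (adjusted p = 0.00677). Dennd5a, a partner of Rab6 and exchange factor of Rab39, was lower by -2.49 ± 0.48 (5.62-fold, adjusted p = 0.01), and Tbc1d8 and Mon1b by -1.90 ± 0.37 and -1.99 ± 0.46. Ankrd27 (Varp), the exchange factor of Rab21 and a partner of Rab32 and Rab38, was lower by -1.83 ± 0.46 (adjusted p = 0.031), and Myo5a, the motor that carries Rab27a and Rab11a vesicles, by -2.53 ± 0.71 (adjusted p = 0.049). Without replicate 1 of treated aly these were -1.21 (adjusted p = 0.0443) for Ankrd27 and -1.54 (adjusted p = 0.0988) for Myo5a, so the Myo5a call was lost. Tbc1d15 and Tbc1d23 were lower by -1.67 ± 0.40 and -1.50 ± 0.35. Without replicate 1 of treated aly the differences were -1.95 for Dennd5a, -1.82 for Tbc1d8, -1.68 for Mon1b, -1.47 for Tbc1d15 and -1.43 for Tbc1d23. That of Tbc1d24 was 1.79, and these calls were kept. Other probe sets gave 0.14 for Ankrd27, -0.28 and -1.22 for Myo5a, -0.15 and 0.44 for Mon1b, -0.09 and 0.44 for Tbc1d23 and -0.49 for Tbc1d24, so 4 of these 5 genes had a probe set of the opposite sign. None of the 9 calls was kept in all 12 omissions of 1 array, and those of Tbc1d4, Tbc1d8 and Dennd5a were lost only without replicate 3 of treated WT (adjusted p up to 0.0976). Tbc1d4, Tbc1d8 and Mon1b were called in both comparisons, which share the treated WT arrays. In the interaction no regulator was called (0 in limma, with 13 at an unadjusted p under 0.05, or 10.6% against 7.96% of all genes).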

How the data were processed

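Mouse Affymetrix arrays were analysed from the table of deposited intensity values, which has a column for each of 12 samples on a linear scale. RNA was amplified in 2 rounds before labelling, per the labels' protocols. The 2% trimmed mean was 150.001 on each deposited intensity column, so the authors' values were scaled to a common target. Neither the software nor its background step is given in the sources used here.

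Of 45101 probe sets, 34945 carried 1 gene symbol, 932 several, 9160 none, and 64 were controls. Names were given to single-symbol probe sets alone. A probe set was kept if it passed the 40th percentile of intensity on 3 or more arrays, and the one with the highest mean stood for its gene, which left 15019 genes. Of the 58 members, 37 had several probe sets. In 14 of the 33 with several past the filter, another probe set had the opposite sign with treatment in WT.

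The log2 of the deposited intensity plus 16 was modelled by 4 group means in limma 3.58.1 under R 4.3.3 (data.table in version 1.17.8), with moderated variances (8 residual and 7.94 prior degrees of freedom), and 5 contrasts were taken. The fit was tested on simulated data. Figures were drawn with matplotlib 3.10.9 in Python 3.11.15. No 2 arrays held identical values (0 pairs). Same-numbered arrays of the untreated genotypes correlated at 0.159, 0.226 and 0.179 in their deviations from the group means, all over 0.1, so the number was taken to pair them, from the data and not from the labels. In each other comparison at least 1 pair was under 0.1.

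Members, roles and regulator lists were chosen with earlier results of these data known, so no p-value is adjusted over a list alone. Members called in any contrast, the 2 largest changes each way per contrast and 19 Rabs of well known function were named by rule, with up to 10 called regulators per contrast. Rab8b, Rab11b and the Rabs given only as an end of a range, with Exoc6 and Chml, were added after their values were seen. The alternatives were the added constant, the scaling, the filter, the choice of probe set, blocks, array weights, the arrays fitted and leaving out each array. Values of replicate 1 alone were added after seeing the data.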

Additional observations from a re-analysis of the deposited data

How the results depend on the processing

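Of the 312 values of the 12 called Rab results under other settings, 251 were the same, 57 lost the call, 4 moved and 0 reversed. The Rab26 results are among the 12, and Rab26 passed the filter only through treated WT, where it is high. A tested value was the same if it kept its direction and call. Values of replicate 1 alone have no test, and were the same within 1 standard error of the main value and moved beyond it. The constant added before the log2 mattered most for low levels. With 1 in place of 16, genes called were 894 (WT treatment, 1437 as reported), 11 (aly treatment, 73), 1 (untreated genotypes, 78), 236 (treated genotypes, 804) and 1 (interaction, 23), Rab members 5 in WT and 2 between treated genotypes, and regulators 9 and 2. With 64 added, genes called were 29 between untreated genotypes and 55 in the interaction, and 8 Rab members differed between treated genotypes. Median centring gave 38 genes between untreated genotypes, no filter 39 there and 12 in the interaction, and quantile normalization 7 in the interaction and 5 Rab members in WT.

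Fits on only the groups compared called 2901 genes, 14 Rab members and 30 regulators in WT, 2 genes in aly, 402 between untreated genotypes, and 23 genes, 0 Rab members and 0 regulators between treated genotypes. Array quality weights called 3387, 166, 631, 2915 and 372 genes in the 5 contrasts, 17, 1, 10 and 1 Rab members in WT, untreated genotypes, treated genotypes and interaction, and 37 and 31 regulators. Replicates 2 and 3 alone called 29 genes in aly, 243 between untreated genotypes and 5 in the interaction, and 2 Rab members between treated genotypes. Poly-A spike-ins averaged 3.25 to 23.7 on replicates 1 and 54.9 to 533 on the others. With that split as a block, 124 genes were called in aly and 176 between untreated genotypes, and 1 Rab member, Rab19, in aly. With a replicate block, 136 genes were called between untreated genotypes, 8 Rab members in WT and 5 between treated genotypes, with Rab10 added. The block changed no other Rab call. The causes were not tested.

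Leaving out each array in turn gave 588 to 2848 genes and 4 to 14 Rab members in WT, 13 to 106 and 0 in aly, 0 to 398 and 0 between untreated genotypes, 80 to 1560 and 1 to 8 between treated genotypes, and 1 to 110 and 0 in the interaction. Regulators ranged from 4 to 32 in WT and from 0 to 15 between treated genotypes. The lowest WT gene count came without replicate 3 of treated WT and the highest without replicate 1 of treated aly. With 3 arrays per group, the number of arrays limits the precision.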
